A study of Mus musculus with 2 samples.

Results

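The histone genes of the neonatal mouse heart were taken from the gene tables by symbol. A gene was included when its mouse symbol began with Hist1h, Hist2h, Hist3h or Hist4h, or when it was one of H2afx, H2afy, H2afy2, H2afz, H2afv, H2afj, H3f3a, H3f3b, H1f0 and H1fx. Of the 43346 Ensembl genes in the tables, 77 met the rule. They were 67 genes of the Hist-named clusters, called clustered genes here, of which 3 are annotated as pseudogenes (Hist1h2aj, Hist1h2al and Hist3h2bb-ps), and 10 genes named outside the clusters, called variant genes here. Another 3 symbols of the annotation that fit the rule (Hist2h2bb, Hist1h2bm and Hist1h2bh) had no identifier in the tables and were not analysed here.

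The measurements are total RNA sequencing of whole hearts from 2 pups of the inbred mouse strain B6NCrl, taken at postnatal day 0. Replicate 1 was the heart of pup 2 and replicate 2 the heart of pup 3, both of pregnancy 1, and each library came from 1 whole heart of an animal whose sex was not recorded. The donor identifier in the labels is the same for both libraries, and they are taken as separate pups only because their descriptions name different ones. No other age, tissue or treatment was sampled, so there was 1 group (n = 2), the spread is that between these pups, and no test between groups was possible. Levels are in TPM, a transcript abundance that is divided by gene length and scaled to the same total in each library. This lets genes be set beside each other. The length used was 99 bases under the model's length in both libraries, which weighs more on short models.

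Nucleosomes are built from the core histones H2A, H2B, H3 and H4, and linker histone H1 binds where DNA enters and leaves them. Most clustered genes are replication-dependent: they are transcribed in S phase, and their mRNAs end in a conserved stem-loop bound by the protein SLBP instead of a poly(A) tail. Variant histones such as H3.3 and H2A.Z are made throughout the cell cycle from polyadenylated mRNAs often with introns, and they replace core histones outside replication, also in cells that have left the cycle. In the mouse heart, cardiac muscle cells are still completing their last rounds of division around birth, while other heart cells go on dividing.

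The stem-loop was looked for in the GENCODE M21 transcript models, as the 16 letters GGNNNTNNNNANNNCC in which the 6 letters at either end pair with each other. It was found in the models of 42 of the 67 clustered genes, and among the variant genes in that of H2afx, whose product is the H2A form phosphorylated at DNA breaks. Of 58515 protein-coding transcripts outside the histone genes, 1.27% held such a match anywhere and 0.0786% in their last 200 bases. The stretches shown are those of the most abundant matching gene of H2A, H1 and H4, of the variant gene, and of 3 genes whose loop or stem is spelled differently. Capitals mark the stem-loop, and the lower case letters are up to 5 bases on either side.
Hist1h2ap (H2A): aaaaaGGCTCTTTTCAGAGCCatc
Hist1h1c (H1): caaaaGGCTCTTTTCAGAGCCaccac
Hist1h4d (H4): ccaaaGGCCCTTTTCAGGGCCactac
H2afx (variant H2A): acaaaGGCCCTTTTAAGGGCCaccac
Hist2h2ac (H2A): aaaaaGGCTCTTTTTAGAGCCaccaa
Hist1h3g (H3): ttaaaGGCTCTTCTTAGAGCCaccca
Hist2h4 (H4): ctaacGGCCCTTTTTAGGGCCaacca

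The spelling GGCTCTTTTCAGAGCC was shared by 22 genes of H1, H2A, H2B and H3, and by no H4 gene. The spelling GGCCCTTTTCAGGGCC was held by 7 genes, all of them H4, and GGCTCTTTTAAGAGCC by 6 genes of H1, H2B and H3. In 21 of the 42 clustered genes the stem-loop lay within 100 bases of the model's end (3 bases in Hist1h2ap), and in the other 21 it lay further upstream (840 bases in Hist1h1c and 1643 bases in Hist3h2a). The polyadenylation signal AATAAA stood in the last 50 bases of the model in 15 of 67 clustered and 5 of 10 variant genes, against 40.7% of the protein-coding transcripts outside the histone genes. These positions are those of the M21 models. Of the 21 genes with a stem-loop further upstream, 11 have a model that changed from the annotation behind the counts, so for them the position does not describe what was counted.

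The libraries held 46151722 and 44707283 expected counts, and for a gene of 500 bases 3 counts corresponded to 0.196 and 0.198 TPM. All 8 heart muscle markers were detected, and their levels summed to 57835 and 53338 TPM in replicates 1 and 2. Of these markers 6 of 8 were higher in replicate 1, with a median log2 ratio of 0.12 and at most 0.31 (Myh6). The 6 erythroid markers summed to 13809 TPM in replicate 1 and 8835 TPM in replicate 2, none was at 0, and all 6 were higher in replicate 1. Of the 3 lung epithelium markers, Scgb3a2 had 2.96 and 563 TPM in replicates 1 and 2, and Sftpc had 25.5 and 0.34 TPM. The third, Sftpb, had 0.42 and 0.25 TPM. The manual of an oligo(dT)-primed kit (SMARTer Ultra Low) is listed among the protocols, and how fully RNAs without a poly(A) tail were captured was not tested. Levels of clustered genes beside those of variant genes are therefore levels of captured RNA.

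All 77 genes together took 0.359% of TPM in replicate 1 and 0.372% in replicate 2. Detection was set at 1 TPM in both libraries, a level that 46 of the 77 histone genes reached, against 29.6% of all Ensembl genes. The detected genes were 36 of 67 clustered and 10 of 10 variant genes. Among the clustered genes, 2 had a mean of 100 TPM or more, 10 lay between 10 and 100 TPM, 26 between 1 and 10 TPM and 29 under 1 TPM. Among the variant genes, 5 lay at 100 TPM or more, 4 between 10 and 100 TPM and 1 between 1 and 10 TPM. The median level was 1.45 TPM over the clustered genes and 101 TPM over the variant genes. By class, 14 of 20 clustered H2A genes, 8 of 12 H3 genes and 3 of 6 H1 genes reached 1 TPM in both pups. So did 6 of 13 H4 genes and 5 of 16 H2B genes. The H2B share, 31.2%, was near the 29.6% of all Ensembl genes. Whether detection differed between the classes was not tested. Of the 46 detected genes, 18 had a posterior SD of the count above 10% of the posterior mean in either library. Among them was the pseudogene Hist1h2aj (44.4% and 55.2% in replicates 1 and 2). The detection of such genes may depend on how reads were divided among similar genes.

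Just inside the detection limit of 1 TPM were Hist1h2ac at 1.0 and 1.33 TPM in replicates 1 and 2 and Hist1h3a at 1.07 and 1.23 TPM. Just outside it, by the lower of the 2 libraries, were Hist1h2bb at 0.88 and 0.77 TPM and Hist1h2bn at 0.77 and 2.13 TPM. No count was assigned in either library to 4 clustered genes, Hist1h2aa, Hist1h2ao, Hist1h2ba and Hist1h4m. At their lengths 3 counts correspond to between 0.206 and 0.279 TPM, a limit that covers counting error only, and Hist1h2ao and Hist1h4m share 92.7% and 88.1% of their 100-base words with other genes.

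**Figure D1:**
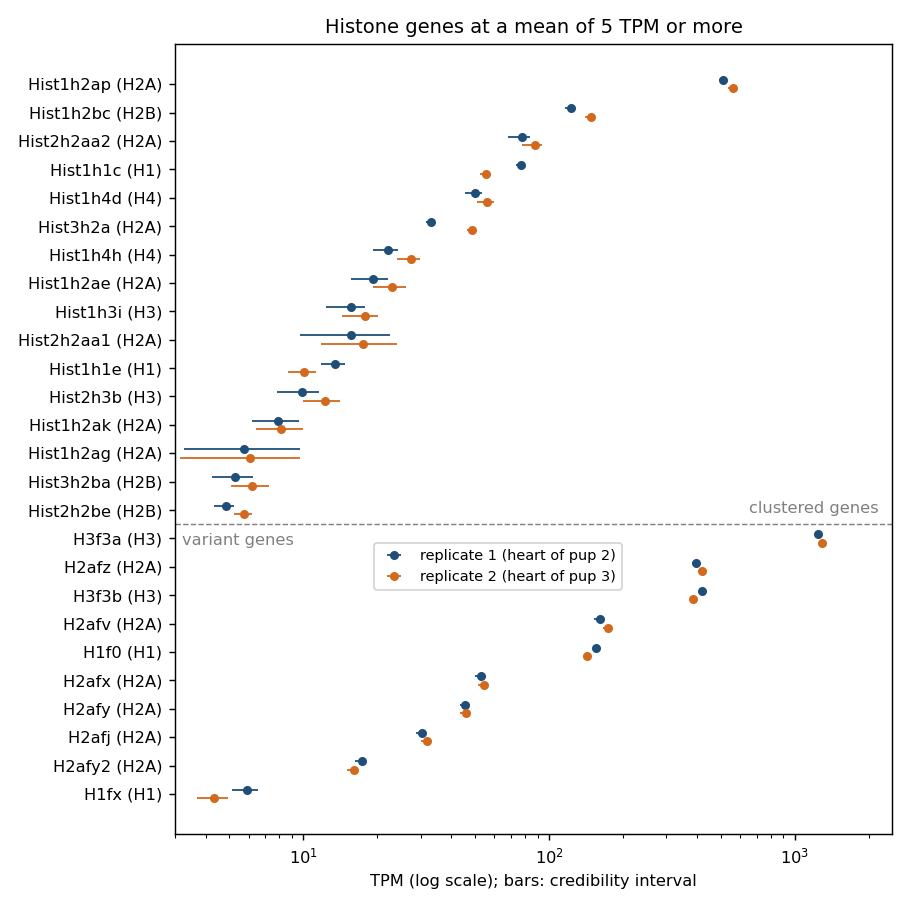
TPM (log scale) of the 26 histone genes at a mean of 5 TPM or more, with 16 clustered genes above the dashed line and 10 variant genes below it. Points are the libraries and bars the deposited credibility intervals. H3f3a stands above all others, Hist1h2ap is the highest clustered gene, and most clustered genes shown lie under 100 TPM.

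Among the 3 classes that have variant genes in the rule, H3 was the one in which they took the largest share of TPM. H3f3a and H3f3b encode the same H3.3 protein, which is deposited at active genes and at chromosome ends independently of replication. H3f3a had 1247 TPM in replicate 1 and 1294 TPM in replicate 2 (42231 and 43628 expected counts), and H3f3b had 421 and 386 TPM (27181 and 24751 expected counts). H3f3a was the higher of the pair in both pups, by 3.15-fold on the mean TPM. Most of each gene's level sat in 1 transcript: H3f3a-201 held 77.1% and 77.4% of H3f3a, and H3f3b-201 held 82.0% and 82.4% of H3f3b. H3f3a and Hist1h2ap were apart from the next gene in the order of levels, with credibility intervals that did not overlap in either pup.

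The 12 clustered H3 genes summed to 39.1 TPM in replicate 1 and 44.1 TPM in replicate 2, against 1668 and 1680 TPM for the variant H3 genes. The log2 ratio of clustered over variant sums was -5.41 and -5.25, and variant genes held 97.7% and 97.4% of H3 TPM. The highest clustered H3 gene was Hist1h3i with 15.6 and 17.8 TPM (186 and 209 expected counts), followed by Hist2h3b with 9.91 and 12.2 TPM (147 and 180 expected counts). These 2 genes held 65.3% and 68.0% of clustered H3. The other 10 lay between 0 and 4.29 TPM in a library. Hist1h3i and Hist2h3b share 68.6% and 100% of their 100-base words with other genes, and their posterior SDs were 5.72% and 5.06% and 5.53% and 4.84% of the count.

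**Figure D2:**
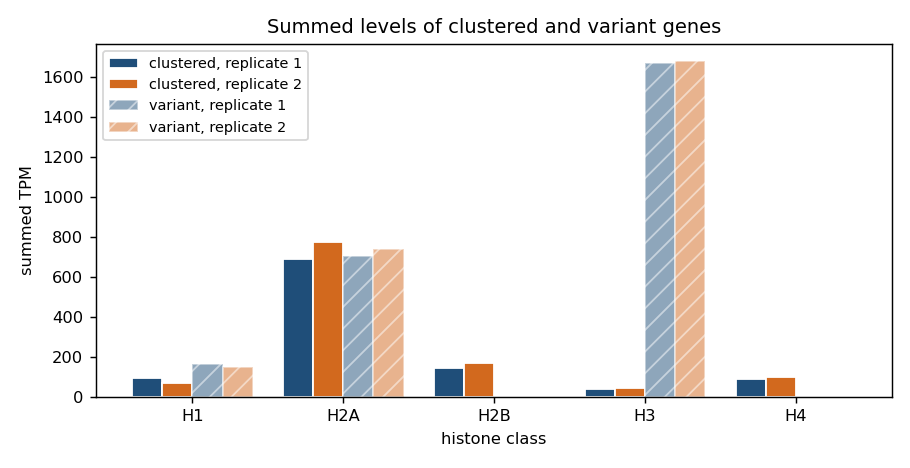
Summed TPM (linear scale) of clustered genes (solid bars) and variant genes (hatched bars) in each class and library. The H3 sum is almost all variant (97.7% and 97.4%), the H2A sums are nearly equal, and no H2B or H4 variant gene is among the 10.

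In H2A the clustered and the variant genes reached about the same summed level. The 20 clustered H2A genes summed to 689 TPM in replicate 1 and 772 TPM in replicate 2, and the 6 variant H2A genes to 703 and 741 TPM. The log2 ratio of clustered over variant was -0.03 in replicate 1 and 0.06 in replicate 2, so its direction differed between the pups. This balance rested on 1 clustered gene, Hist1h2ap, with 512 and 560.1 TPM (7490.1 and 8099 expected counts), which held 74.4% and 72.5% of clustered H2A. Without it the clustered H2A genes summed to 177 and 212 TPM. The balance is one of TPM. In expected counts, not divided by length, clustered H2A genes had 12295 and 14354 and variant H2A genes 28227 and 28989.

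Hist1h2ap (mm10 chr13:21833026-21833507, minus strand) has a near copy in Hist1h2ao. The models share an identical run of 452 bases. The Hist1h2ap model has 30 bases before that run and ends with it, 3 bases past its stem-loop. The Hist1h2ao model starts with the run and has 28 bases after it, ending 31 bases past its stem-loop. Whether the genes themselves differ in these stretches, or only where their models end, was not tested. The 100-base words of Hist1h2ap were shared with Hist1h2ao to 92.2%. The deposited estimate put all counts of the pair on Hist1h2ap, with a posterior SD of 0.505% and 0.470% of the count, and 0 on Hist1h2ao. The credibility interval of Hist1h2ao reached 4.13 TPM in replicate 1 and 3.68 TPM in replicate 2, so the files place nearly all of the pair's level on the gene whose own bases lie at the 5′ end. The sum of the pair, 512 and 560.1 TPM, does not depend on that choice.

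Among the variants of H2A, H2afz and H2afv encode the closely related H2A.Z.1 and H2A.Z.2, found at promoters and enhancers. H2afz had 395 TPM in replicate 1 and 418 TPM in replicate 2 (14333 and 14845 expected counts), and H2afv had 161 and 175 TPM (5179 and 5547 expected counts). H2afz was the higher in both pups, by 2.42-fold. The transcript H2afz-201 held 92.7% and 88.8% of its gene, while H2afv was split between H2afv-201 at 62.1% in both libraries and H2afv-202 at 37.9% in both.

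H2afx had 52.8 and 54.3 TPM (2589 and 2634 expected counts). H2afj, which encodes the replacement form H2A.J, had 30.4 and 31.98 TPM (2003 and 2086 expected counts) and was lower than H2afx in both pups, with H2afx 1.72-fold higher. The macroH2A genes, whose products carry a large extra domain and are linked to repressed chromatin, also differed: H2afy had 45.7 and 45.8 TPM (2749 and 2613 expected counts) and H2afy2 17.4 and 16.1 TPM (1374 and 1263 expected counts), 2.73-fold apart. H2afy was spread over its transcripts, with H2afy-202 at 44.9% and 42.0%, the noncoding H2afy-204 at 27.0% and 32.8% and H2afy-201 at 22.2% and 19.8% of the gene.

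The clustered H2A genes after Hist1h2ap were Hist2h2aa2, Hist3h2a, Hist1h2ae and Hist2h2aa1. Hist2h2aa2 had 77.6 and 87.6 TPM (1270 and 1419 expected counts, posterior SD 4.44% and 3.95%), and its neighbour Hist2h2aa1 had 15.6 and 17.5 TPM (290 and 321 expected counts, posterior SD 18.8% and 16.9%). All 100-base words of Hist2h2aa2 occur in Hist2h2aa1, and 88.1% of those of Hist2h2aa1 occur in Hist2h2aa2, so the split between them is uncertain while their sum was 93.2 and 105 TPM. An antisense gene, Gm20632, overlaps Hist2h2aa2 and had 425 and 309 expected counts. The sources used here do not say whether counting used strand, so reads of this gene and its antisense partner cannot be told apart. Hist3h2a had 33.2 and 48.6 TPM (2590 and 3756 expected counts, posterior SD 0.187% and 0.117%), which made it the second of the clustered H2A genes by counts and the third by level, its model of 2146 bases being longer than those of Hist2h2aa2, Hist1h2ae and Hist2h2aa1.

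Hist1h2ae had 19.3 and 23.0 TPM (266 and 313 expected counts, posterior SD 6.50% and 5.48%). Hist1h2ak had 7.88 and 8.15 TPM (88.4 and 90.5 expected counts, posterior SD 3.59% and 3.803%). Hist1h2ag had 5.76 and 6.09 TPM (84.9 and 88.8 expected counts, posterior SD 24.7% and 25.1%). The other 13 clustered H2A genes lay between 0 and 5.35 TPM in a library, with Hist1h2ab the highest of them.

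H2B and H4 have no variant genes in the rule, and each was led by 1 clustered gene. For H2B it was Hist1h2bc (mm10 chr13:23684199-23692908, plus strand), with 122 TPM in replicate 1 and 148 TPM in replicate 2 (2977 and 3558 expected counts, posterior SD 0.301% and 0.210%). It held 84.4% and 86.5% of H2B, which summed to 145 and 171 TPM over 16 genes. No stem-loop match was found in its transcript model, which says only that the letters searched for are not in that model. The next were Hist3h2ba at 5.29 and 6.21 TPM (104 and 121 expected counts, posterior SD 0.963% and 0.539%) and Hist2h2be at 4.83 and 5.76 TPM (465 and 548 expected counts, posterior SD 0). Hist1h2bc was 25.5-fold above Hist2h2be on the mean TPM.

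For H4 it was Hist1h4d, with 50.2 and 56.0 TPM (563 and 622 expected counts, posterior SD 0.0817% and 0.113%), followed by Hist1h4h with 22.1 and 27.6 TPM (316 and 389 expected counts, posterior SD 2.06% and 1.70%). These genes held 83.0% and 84.7% of H4, which summed to 87.1 and 98.7 TPM over 13 genes. The clustered H4 genes are known to encode the same protein in the mouse, but the 13 differed in level from 0 to 56.0 TPM in replicate 2. The other 11 lay at 4.50 TPM or less in a library. The model of Hist1h4d behind the deposited counts was 393 bases long, against 1138 bases in the later annotation, so its level refers to the shorter model.

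Linker histone H1 was led by a variant gene, with a clustered gene after it. H1f0, the linker variant H1.0 that accumulates in differentiated cells, had 156 TPM in replicate 1 and 142 TPM in replicate 2 (13025 and 11755 expected counts). Hist1h1c, which encodes H1.2, had 76.8 and 55.4 TPM (4283 and 3053 expected counts, posterior SD 0.124% and 0.143%). H1f0 was 2.26-fold higher than Hist1h1c on the mean TPM, with the same direction in both pups. Hist1h1c in turn was 5.62-fold above Hist1h1e, which encodes H1.4 and had 13.4 and 10.1 TPM (333 and 247 expected counts, posterior SD 1.59% and 1.71%).

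H1fx, the linker variant H1.10, had 5.90 and 4.35 TPM (252 and 184 expected counts), and H1f0 was 29.1-fold above it. The clustered H1 genes summed to 96.1 and 70.4 TPM and the variant H1 genes to 162 and 147 TPM, a log2 ratio of -0.75 and -1.06. Hist1h1c held 80.0% and 78.6% of clustered H1. Of the rest, Hist1h1b, whose product H1.5 is associated with dividing cells, had 4.07 and 3.54 TPM, and Hist1h1t, the testis form, had 0.04 and 0 TPM.

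Across all classes, clustered genes summed to 1057 TPM in replicate 1 and 1157 TPM in replicate 2 and variant genes to 2533 and 2568 TPM. The log2 ratio of clustered over variant was -1.26 and -1.15 (mean -1.21 ± 0.08, SD, n = 2), so the variant sum was 2.40-fold and 2.22-fold higher. Without Hist1h2ap, an alternative chosen after seeing the data, the mean log2 ratio was -2.16, and the clustered sum was 544 and 596 TPM. The 5 highest clustered genes, Hist1h2ap, Hist1h2bc, Hist2h2aa2, Hist1h1c and Hist1h4d, held 79.5% and 78.4% of the clustered sum. H3f3a alone held 49.2% and 50.4% of the variant sum. In whole tissue, fewer cells of a type and less RNA per cell cannot be told apart, so these levels do not separate dividing from non-dividing cells.

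Of 12 pairs compared within each pup, 8 had the gene written first higher, 3 had the second higher and 1 could not be called. The 3 were H3f3a over H3f3b, H2afx over H2afj and H1f0 over Hist1h1c. Which gene was written first was a choice of listing, so the count of 8 says nothing about a kind of gene. A pair was called when both pups had the same direction, the mean log2 ratio exceeded the difference between pups and the credibility intervals were apart in both. H3f3b and H2afz were not ordered: H3f3b had 421 and 386 TPM and H2afz 395 and 418 TPM, a log2 ratio of 0.09 in replicate 1 and -0.11 in replicate 2. With 2 libraries the smallest two-sided p of an exact sign-flip test is 0.5, so no pair could pass a test. In the order of the 26 genes at a mean of 5 TPM or more, separated neighbours were H3f3a over Hist1h2ap, Hist1h2ap over H2afz, H3f3b over H2afv, Hist1h2bc over Hist2h2aa2 and H2afj over Hist1h4h. The other 20 of the 25 adjacent pairs were not separated.

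Many H2A and H2B genes lie head to head and share the DNA between their starts, and 13 such neighbours with starts 172 to 305 bases apart were found. In 7 of them the H2A gene was higher in both pups, in 4 the H2B gene was higher in both, in 1 the direction differed between the pups and in 1 both genes were at 0. With the added conditions that credibility intervals were apart in both pups and the mean log2 ratio exceeded the difference between pups, the H2A gene was higher in 4, the H2B gene in 2, and 7 were not called. Both genes were detected in 4 neighbours, 1 gene in 5 and neither in 4. The most unequal neighbours were Hist1h2ap at 512 and 560.1 TPM beside Hist1h2br at 0.58 and 0.48 TPM, and Hist1h2bc at 122 and 148 TPM beside Hist1h2ac at 1.0 and 1.33 TPM. On the mean TPM, Hist1h2bc was 116-fold above Hist1h2ac across a gap of 250 bases, with a log2 ratio from TPM + 1 of 5.95 and 6.00. Hist1h2ac had only 14.35 and 18.88 expected counts (posterior SD 31.0% and 26.7%), so the size of that fold is uncertain. The transcript models of both genes also changed after the annotation behind the counts. The most equal of the neighbours in which both were detected was Hist2h2be at 4.83 and 5.76 TPM beside Hist2h2ac at 2.48 and 2.64 TPM, 2.07-fold apart. Sequence sharing limits some of these values: 99.8% of the words of Hist1h2br and 100% of those of Hist1h2bq occur in other genes. Hist1h2bq was counted as higher than Hist1h2ao, whose 0 TPM rests on how the files divide reads between Hist1h2ao and Hist1h2ap. The H2B member beside Hist3h2a is the annotated pseudogene Hist3h2bb-ps.

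**Figure D3:**
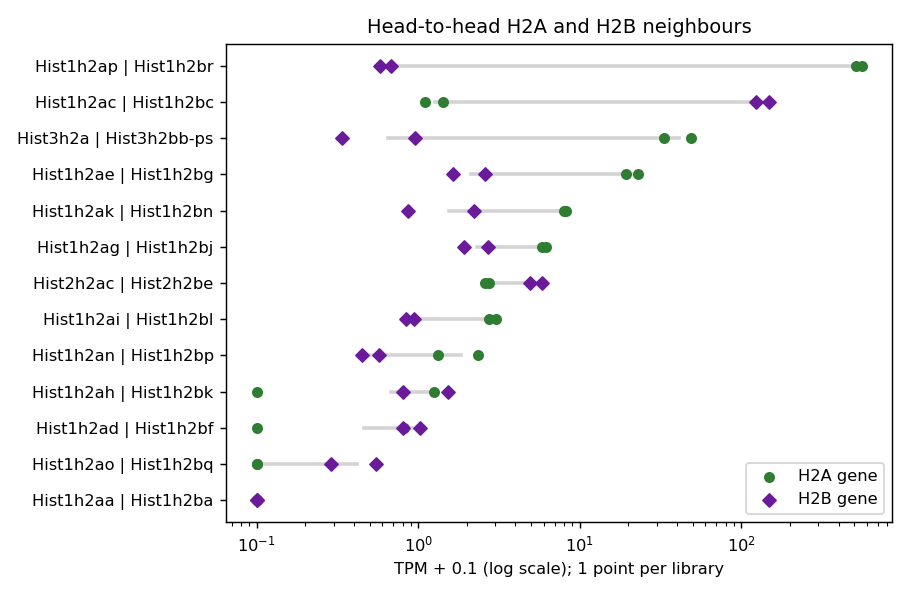
TPM + 0.1 (log scale) of the H2A gene (circles) and the H2B gene (diamonds) in 13 head-to-head neighbours, with 1 point per library. The widest gaps are those of Hist1h2ap (512 and 560.1 TPM) above Hist1h2br (0.58 and 0.48 TPM) and of Hist1h2bc (122 and 148 TPM) above Hist1h2ac (1.0 and 1.33 TPM).

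Most of the DNA between the starts of these most unequal neighbours is shown, because both genes of each pair lie against the same stretch. The sequences come from the RefSeq promoters of the H2A genes (GRCm38.p6, minus strand), kept outside the transcript models of both genes. They cover 239 of the 250 bases between Hist1h2ac and Hist1h2bc and 218 of the 235 bases between Hist1h2ap and Hist1h2br. Capitals mark every match, on either strand, to the CCAAT box (CCAAT), the TATA box (TATAAA) and the octamer (ATTTGCAT), motifs known from histone promoters.
Hist1h2ac and Hist1h2bc, chr13:23683960-23684198: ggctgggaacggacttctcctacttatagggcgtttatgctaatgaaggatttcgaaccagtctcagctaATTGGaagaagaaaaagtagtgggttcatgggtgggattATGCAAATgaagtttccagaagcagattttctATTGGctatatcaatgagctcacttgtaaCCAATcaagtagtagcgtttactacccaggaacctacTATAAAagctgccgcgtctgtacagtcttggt
Hist1h2ap and Hist1h2br, chr13:21833508-21833725: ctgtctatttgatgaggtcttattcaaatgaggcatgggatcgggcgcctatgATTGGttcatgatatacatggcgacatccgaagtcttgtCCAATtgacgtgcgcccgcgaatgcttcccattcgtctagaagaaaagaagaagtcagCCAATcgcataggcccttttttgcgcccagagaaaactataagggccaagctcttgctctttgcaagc

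A RefSeq promoter was matched for 58 clustered and 7 variant genes, and the 250 bases before the RefSeq start were searched on both strands. CCAAT was found in 81.0% of clustered promoters, against 33.8% of the 32851 promoters of the RefSeq table. It was in 5 of 5 H1, 18 of 18 H2A and 13 of 13 H2B promoters, in 8 of 10 H3 promoters and in 3 of 12 H4 promoters. Of the 7 variant promoters, 4 held CCAAT (57.1%), 3 of them H2A. TATAAA was found in 48.3% of clustered promoters and in 0 of 7 variant promoters, against 12.4% of all. The octamer was found in 11 of 58 clustered promoters (19.0%, against 1.6% of all), 7 of them H2A and 4 H2B, and head-to-head neighbours share windows. A match describes letters in a window and is not a site.

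**Figure D4:**
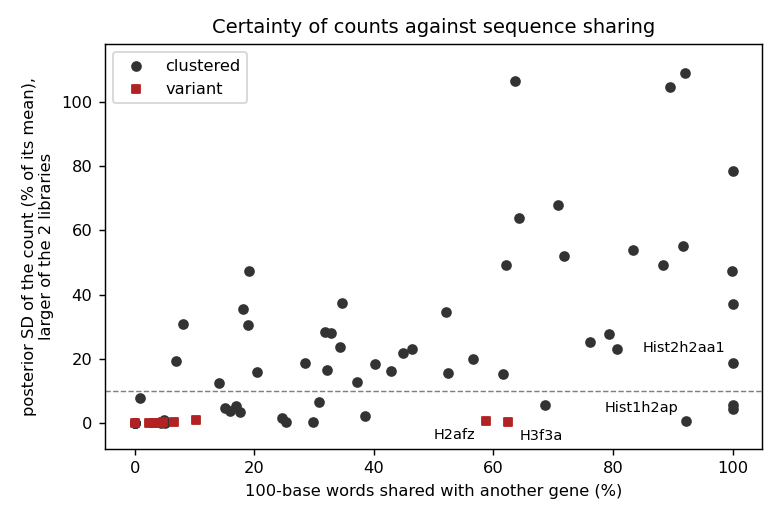
Posterior SD of the count as a percentage of its posterior mean (larger of the libraries) against the percentage of a gene's 100-base words found in other genes, for members with a mean count of 3 or more. The dashed line is at 10%. Variant genes (squares) lie under the line, Hist1h2ap lies under it at 92.2% shared words, and clustered genes lie on both sides of it at low and at high sharing.

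Reads that fit several near-identical genes were shared out by the authors' quantification, and the posterior SD of the count gives the uncertainty. It exceeded 10% of the posterior mean in either library for 43 of the 76 histone genes with a posterior count, against 15.2% of all such genes, and all 43 were clustered. They were 13 H2A, 12 H2B, 10 H3 and 8 H4 genes, and none of the 6 clustered H1 genes. Among detected genes 18 of 46 exceeded it, against 3.14% of all detected genes, and among the 16 clustered genes at a mean of 5 TPM or more it was exceeded by Hist1h2ag and Hist2h2aa1. Among the 10 variant genes the posterior SD was at most 0.936% of the count.

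Among the 71 histone genes with a mean count of at least 3, of which 39 had uncertain counts, 27 shared 50% or more of their 100-base words with other genes. Of these 27, 21 had uncertain counts (median posterior SD 34.7%). Of the 38 that shared some words but under 50%, 18 had uncertain counts (median 7.15%), and of the 6 with no shared word 0 had. The variant genes H3f3a and H2afz shared 62.5% and 58.8% of their words with other genes and had posterior SDs of at most 0.533%. Neither shared such a word with another of the histone genes read here. Of the words of H3f3a, 51.8% were shared with Gm17275, a noncoding gene overlapping it on the opposite strand with 125 and 91.4 expected counts. The shared words of H2afz were found in Tmcc1, and the kind of that sharing was not examined. A further limit is that the transcript models of 25 histone genes changed between the annotation of the counts and the one used for sequences. Of these, 20 were clustered, and the variant ones were H1f0, H2afj, H2afy, H2afz and H3f3a. The other 47 clustered genes, with unchanged models, summed to 811 TPM in replicate 1 and 874 TPM in replicate 2.

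By features of the transcript model, the 42 clustered genes with a stem-loop summed to 875 TPM in replicate 1 and 943 TPM in replicate 2, with a median of 1.92 TPM. The 25 without a match summed to 181 and 214 TPM, with a median of 0.79 TPM, and Hist1h2bc was the highest of them. Several of these models were short, such as Hist1h3i at 411 bases, Hist1h2ai at 393 and Hist1h2bl at 381, and may not reach the mRNA's 3′ end. No match says only that the letters are not in the model, so this split does not separate genes that lack a stem-loop. The 21 genes with the stem-loop near the model's end had a median of 1.64 TPM and 13 were detected, and the 21 with the stem-loop further upstream had a median of 2.01 TPM and 13 were detected. Among genes with unchanged models, the median was 1.81 TPM over 16 genes with the stem-loop near the end and 2.47 TPM over 10 with it further upstream. The 15 clustered genes with AATAAA near the end had a median of 0.53 TPM, with Hist1h1c the highest, and the 52 without it had a median of 1.69 TPM. Median model lengths were 1560 bases with AATAAA and 464 bases without it, and TPM is divided by length. These medians therefore do not compare numbers of reads, and the part of the signal in the levels was not tested.

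The pups were compared as the log2 ratio of TMM-scaled counts, replicate 1 over replicate 2. Among 33 histone genes counted at least 50 times on average, 0 differed by 1 or more on the log2 scale, where 0.498% of 13463 genes did, and the count was also 0 with DESeq2 size factors. With 1 library on either side there is no p-value. At 0.5 or more, 2 of the 33 differed, where 3.36% of genes did. Hist3h2a had 33.2 and 48.6 TPM in replicates 1 and 2 (log2 ratio -0.57), and Hist1h3d had 2.40 and 4.29 TPM (log2 ratio -0.84, posterior SD 15.99% and 12.2% of the count). Both were lower in replicate 1.

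Linker and clustered core histone genes leaned in opposite directions between the pups, a difference between lists that was not tested. At mean counts of at least 20, all 6 linker genes were higher in replicate 1, where 49.9% of all genes were, and their median log2 ratio was 0.37. Hist1h1c had a log2 ratio of 0.46, H1fx 0.42, Hist1h1e 0.40, Hist1h1d 0.35, Hist1h1b 0.18 and H1f0 0.12. Of the 33 clustered core genes with such counts, 24 were higher in replicate 2 and 9 in replicate 1, with a median log2 ratio of -0.17, where 50.1% of all genes were higher in replicate 2 and the median of all genes was -0.0006. By class 10 of 12 clustered H2A genes, 6 of 8 H2B, 4 of 6 H3 and 4 of 7 H4 genes were higher in replicate 2.

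The linker count and the counts by class held under DESeq2 size factors, TPM ratios and unscaled counts, with 1 exception. By TPM ratios 5 of 8 H2B genes were higher in replicate 2. The split of all 15161 genes at a mean count of at least 20 moved toward replicate 1. By TPM ratios 7966 were higher in replicate 1 and 7066 in replicate 2, and with unscaled counts 8623 and 6388. The middle 90% of all genes at such counts lay between -0.43 and 0.37, and 37 of the 47 histone genes with such counts lay in that range. Core genes share reads with each other, so their directions are not independent. The 8 variant genes of H2A and H3 lay between -0.13 and 0.10, near the median of all genes.

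Some other lists leaned to one library as well. The 6 erythroid markers had a median log2 ratio of 0.65 and all were higher in replicate 1. Of 16 S phase genes, 15 were higher in replicate 2, with a median of -0.12. Of 4 markers of proliferating cells, 3 were higher in replicate 1 (summed 169 and 157 TPM in replicates 1 and 2). The heart muscle markers had a median of 0.12, with 6 of 8 higher in replicate 1, and both liver markers, which were under 1 TPM in both libraries, were higher in replicate 1 (median 1.24). Not all lists leaned. Of 26 histone chaperones and exchange factors 14 were higher in replicate 1 and 12 in replicate 2, with a median of 0.0022. Of 15 histone mRNA factors 8 were higher in replicate 1 and 7 in replicate 2. The lung epithelium markers Scgb3a2 and Sftpc went opposite ways (log2 ratios -7.53 and 5.94). The part of these lists in the histone ratios was not tested.

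**Figure D5:**
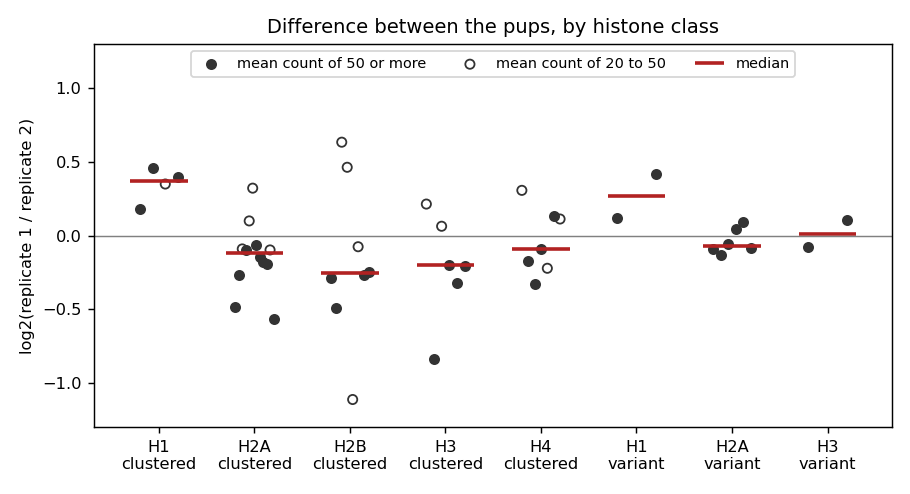
Log2 ratio of replicate 1 over replicate 2 for each histone gene averaging at least 20 counts, by class, with open points for mean counts of 20 to 50 and bars at the median. The linker H1 genes lie above 0, while most clustered H2A, H2B and H3 genes lie below 0.

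The genes that make, process and place histones were also read. Of 16 factors of histone mRNA synthesis and 3′ end processing, 15 were detected, where 29.6% of all Ensembl genes were. Slbp, which binds the stem-loop, had 51.5 TPM in replicate 1 and 52.1 TPM in replicate 2. Cpsf3, the nuclease that cuts after the stem-loop, had 36.4 and 34.2 TPM. Ncbp2, of the cap-binding complex, had 32.1 and 36.5 TPM, and Lsm10, of the U7 snRNP that guides the cut, had 31.8 and 32.7 TPM. Zfp473, a U7-linked zinc finger protein, was the undetected factor at 0.11 and 0.12 TPM. The list had a median ratio near that of all genes, 0.04 on the log2 scale.

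All 26 histone chaperones and exchange factors were detected, against 29.6% of all Ensembl genes. Rbbp4, a histone-binding subunit of several chromatin complexes, led with 168 and 166 TPM, followed by Nap1l4, an H2A-H2B chaperone, with 143 and 137 TPM. Set, another histone chaperone, had 106 and 98.97 TPM, and Anp32e, which removes H2A.Z from nucleosomes, had 88.6 and 78.2 TPM. All 16 S phase genes were detected too, against the same share of all genes. Rrm2 (a ribonucleotide reductase subunit) was at 62.2 and 68.3 TPM, Pcna (the replication clamp) at 56.8 and 62.2 TPM, Dut (the dUTPase) at 52.5 and 55.4 TPM and Cdk2 (an S phase kinase) at 37.1 and 37.3 TPM. No gene of these 3 lists differed by 1 or more on the log2 scale between the pups, where 0.498% of 13463 genes did.

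Histone genes outside the rule were read for context. Cenpa, the centromeric H3 form, had 104 TPM in replicate 1 and 87.4 TPM in replicate 2, above every clustered H3 gene. The oocyte linker gene H1foo and the testis linker gene H1fnt were at 0 in both libraries, and Hils1, another testis linker gene, was at 0.07 and 0.21 TPM.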

How the data were processed

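The authors quantified each library on mm10 with GENCODE M4, per the deposited read-me. The sources used here do not name the aligner or its version. Expected counts, as deposited, are estimates per gene, with reads that match several genes divided among them. TPM and FPKM were scaled for length by the authors, per the file headers. The deposited posterior SDs (in reads) and TPM credibility bounds are signal values whose interval width is not stated. The deposited percent column gives each transcript's share of its gene.

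Symbols, transcripts and coordinates came from GENCODE M21 and promoters from RefSeq. Expected counts were rounded and TMM-scaled over the whole table (edgeR 4.0.16, R 4.3.3; prior count 2). No test was possible, because there was 1 group of 2 libraries. Shared sequence was the percentage of 100-base words found in other genes' transcripts on either strand. Pairs used TPM + 1. Tables were handled with Python 3.11.15 and pandas 2.3.3. The ratio step was tested on simulated data.

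Genes named with values were all variant genes, clustered genes at a mean of 5 TPM or more, class leaders, both members of each pair, genes around the detection limit, genes past a threshold between the pups, and the 4 highest of each of 3 partner lists; Zfp473, Hist1h1b, Hist1h1t and some head-to-head neighbours were named after their values were seen. Members and lists were chosen with earlier results of these data known. Alternatives were DESeq2 1.42.0 size factors, other units, filters, pseudocounts and limits, and each replicate left out. The depth behind every value is 46151722 and 44707283 expected counts. Intervals and limits cover counting error only.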

Additional observations from a re-analysis of the deposited data

How the results depend on the processing

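Of 57 recomputed summary values 11 moved, by over 1.5 times for a count, over 0.1 for a median log2 ratio or over 1 SD of the 2 libraries otherwise. At 5 TPM, 24 members were detected, against 46. The mean log2 ratio of clustered over variant sums (-1.21) was -2.22 from expected counts not divided by length, -1.302 from genes without uncertain counts and -2.16 without Hist1h2ap, and stayed negative in all of these. The count of members past 1 log2 between the pups (0) was 2 at a mean count of 10 or more, 7 with no filter and 2 at a limit of 0.5; over all genes it was 67, and 421, 1913 and 453 in these settings. The median log2 ratio of clustered genes (-0.10) was -0.20 at a mean count of 50 or more, -0.17 in genes without uncertain counts and -0.15 from posterior mean counts, the last 2 within the stated margin. At a limit of 20% on the posterior SD, 31 genes had uncertain counts, against 43. The share of the 5 highest clustered genes (78.9%) was 81.6% from counts, 84.4% from genes without uncertain counts and 66.3% without Hist1h2ap. The alternatives without Hist1h2ap were chosen after seeing the data. Leaving out either replicate gave 47 to 49 members detected, a sum ratio of -1.26 to -1.15, 8 to 9 pairs with the first member higher, 41 to 43 members with uncertain counts and a share of 78.4% to 79.5%. Over 12 pairs, 81 of 84 recomputed calls were as reported, and the 3 others called H3f3b over H2afz in opposite directions: H3f3b was higher from counts (log2 ratio 0.83) and without replicate 2 (0.09), and lower without replicate 1 (-0.11). No other pair that was called changed direction. The cause of these shifts was not tested. No paired analysis was possible because there was only 1 group. With 2 libraries, p-values are out of reach, and counts under 50 limit ratios of low clustered genes.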
